A study of Rattus norvegicus with 8 samples.

Results

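The 5 enzymes of heme synthesis described here are Alas2, Alad, Urod, Cpox and Fech, measured in whole blood RNA of rats on a high-fat or a normal diet. They were taken as every probe set whose platform annotation gave exactly 1 gene symbol equal to one of these names. A probe set is a group of short probes that together measure 1 transcript. This gave 5 probe sets, 1 for each gene, of 31042 probe sets that are not controls. Of other enzymes of the pathway, Alas1 and Ppox had 1 probe set each and Uros had 2. The animals were male Wistar rats bought at 7 weeks of age. The high-fat group (n = 4 arrays) ate Quick fat and the normal group (n = 4 arrays) ate CE-2, each for 8 weeks after a week on the normal diet. Blood was taken on day 56 after an overnight fast. Each array was taken as 1 animal, since the titles number the arrays as biological replicates. A diet group that also received mulberry leaf powder is not analysed here.

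Heme is built from glycine and succinyl-CoA in a chain of enzymes that starts in the mitochondrion, passes through the cytosol and ends in the mitochondrion again. Developing red cells make by far the most of it, for haemoglobin, and switch on their own form of the first enzyme, Alas2. Young red cells in the circulation, called reticulocytes, still hold RNA and mitochondria, which they lose as they mature. In whole blood, fewer cells of a type and less RNA per cell cannot be told apart.

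The deposited values read as log2 intensities, but they differ between arrays far less than log2 intensities of different animals would. Over all probe sets the median SD across the 8 arrays was 6.07 millionths of a log2 unit. Differences are therefore no fold changes, and the degree of compression need not be the same in every probe set. Values of single animals are given below as deviations from the mean of that probe set over the 8 arrays, in millionths of a log2 unit, called millionths. Differences are high-fat minus normal and are also given in within-group SDs, the pooled SD of that probe set within the diets. Levels of different probe sets depend on their probes, so a percentile among all probe sets describes signal on the array and gives no order of RNA amounts. The blood label was checked on markers. The beta globin Hbb stood at the 99.99th percentile of all probe sets and the alpha globin Hba-a3 at the 99.91st, while the liver product Alb stood at the 47.5th. Over whole lists the median percentile was 97.3 for red cell, 96.2 for T cell and 49.0 for neutrophil markers, against 35.3 for liver markers. Single members crossed, with Sptb of the red cell list at the 40.2nd and Ttr of the liver list at the 57.5th. High-fat replicate 4 stood apart from the other arrays in its median and in some marker lists. Its scaled level (the mean over a list of z scores, each gene's values being centred and divided by their SD across arrays) was 2.11 for monocyte markers, 2.05 for NK cell markers and -1.66 for platelet markers. The median of its array lay 137 millionths above the mean of the 8 medians, where the other arrays ran from -80.1 to 1.81. Normal replicate 3 had the lowest median, at -80.1 millionths, and the lowest T cell scaled level, at -1.05. It also had the lowest of limma's array weights, 0.445, against 0.862 to 1.67 in the other arrays. In the high-fat group 7 of 7 monocyte, 6 of 6 NK and 6 of 8 neutrophil markers had higher means, as did 1 of 10 T cell, 1 of 5 B cell and 1 of 5 platelet markers, and none passed limma. These means include high-fat replicate 4. In high-fat replicates 1 to 3 the monocyte scaled level ran from -0.526 to -0.153, against -0.516 to -0.0322 in the normal animals. The NK scaled level ran from -0.533 to 0.119, against -0.559 to 0.0316.

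No enzyme was distinguished between the diets. With limma and Benjamini-Hochberg adjustment over all 31042 probe sets, 0 of the 5 enzymes passed an adjusted p of 0.05, and the background was 0 of all probe sets (0%). All 5 had an adjusted p of 1, while 2 of 5 had an unadjusted p under 0.05, against 2.25% of all probe sets. The enzymes with the lowest p were Urod and Alad. All 5 enzymes had a higher mean in the high-fat group, against 46.6% of all probe sets. Their median difference was 1.13 within-group SDs, against -0.0479 over all probe sets and -0.0374 over 14217 genes with 1 probe set each. Cpox was lower in the high-fat group without high-fat replicate 4 or without normal replicate 3, and Alas2 without normal replicate 4, which left 4 of 5 higher in each case. Centring each array on its median lowered every difference by 66.0 millionths and left 2 of 5 higher, Alad and Urod, with a median difference of -0.288 within-group SDs, where 1.63% of all probe sets were higher and the median over them was -1.20.

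**Figure D1:**
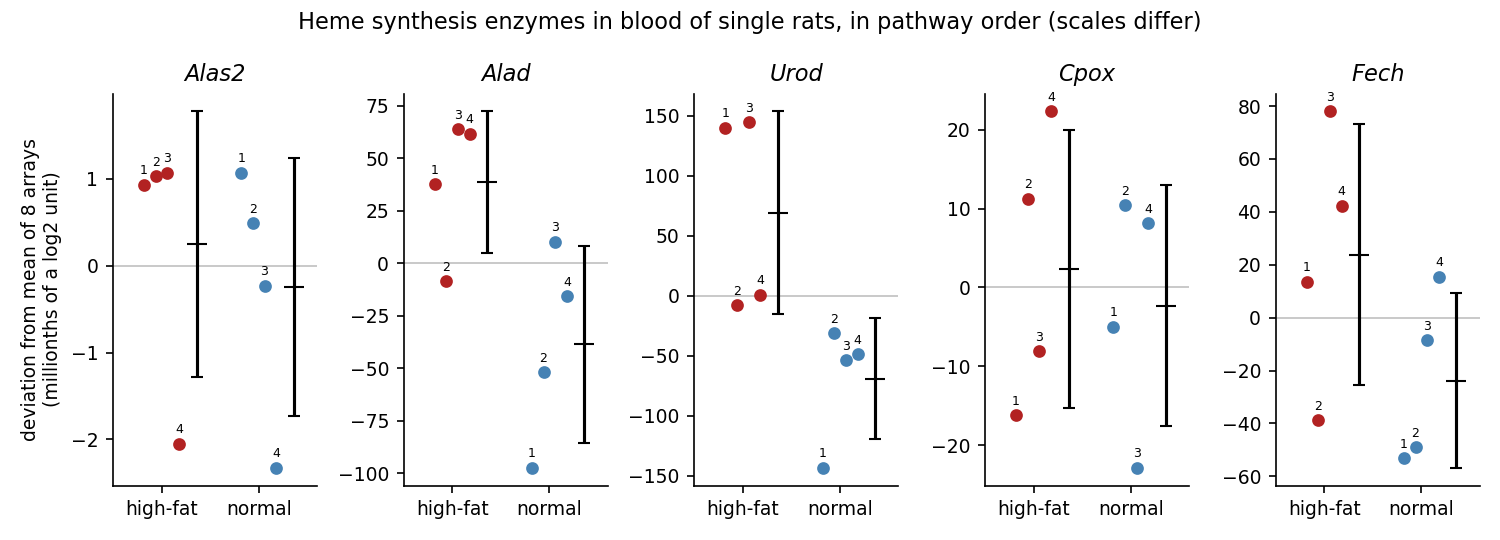
Deviation of each of the 5 enzymes from its own mean over the 8 arrays, in millionths of a log2 unit, for high-fat animals (left in each panel) and normal animals (right). Points are animals numbered by replicate, bars are the mean ± SD (n = 4), and each panel has its own scale. In Urod the lowest high-fat animal, at -8.07 millionths, lies above the highest normal animal, at -31.1, and in the other 4 enzymes the diets overlap.

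Alas2 is the red cell form of 5-aminolevulinate synthase, which joins glycine to succinyl-CoA in the mitochondrion and sets the pace of the pathway in red cell precursors. Its probe set had a mean level of 13.68, at the 99.9th percentile of all probe sets. The high-fat animals lay at 0.933, 1.03, 1.07 and -2.05 millionths (replicates 1 to 4), against 1.07, 0.493, -0.228 and -2.33 millionths in the normal animals. The diets overlapped over nearly the whole range, and replicate 4 was the lowest animal of each diet. By limma the difference was 0.495 ± 1.26 millionths (SE, n = 4 and 4), or 0.328 within-group SDs (adjusted p = 1), and it was 1.26 millionths without high-fat replicate 4. Its whole range over the 8 animals was 3.4 millionths, and its SD lay at the 10.8th percentile of all probe sets. Of the 64 probe sets with a mean level above 13, which include Alas2 and Fech, 34.4% had a smaller SD than Alas2. The difference of Alas2 was -65.5 millionths after centring, a value set almost wholly by the array medians. Alas1, the form of the first enzyme used in most other tissues, had a mean level of 7.01 and the only negative difference among the enzymes' probe sets, at -8.52 ± 7.00 millionths (SE) or -0.814 within-group SDs, where the limma adjusted p was 1.

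Alad, 5-aminolevulinate dehydratase, is a zinc enzyme of the cytosol that joins 5-aminolevulinate molecules into porphobilinogen and is a known target of lead. Its mean level was 7.26, at the 79.0th percentile. In the high-fat animals the deviations were 37.6, -8.66, 63.9 and 61.6 millionths, against -97.3, -51.8, 10.3 and -15.6 millionths in the normal animals. High-fat replicates 1, 3 and 4 lay above every normal animal, and high-fat replicate 2 lay between normal replicates 3 and 4. The group means were 38.6 ± 33.7 millionths in the high-fat group and -38.6 ± 46.7 millionths in the normal group (SD, n = 4). This is a difference of 77.2 ± 27.1 millionths (SE), or 1.90 within-group SDs, and limma gave an adjusted p of 1. Of all probe sets, 99.3% had a lower difference in within-group SDs. The two-sided exact permutation test, which runs through every split of the 8 animals into 4 and 4, gave p = 0.0571, where the smallest possible p is 0.0286. Leaving out single animals gave differences from 57.6 to 93.5 millionths. After centring the difference was 11.2 millionths, and after quantile normalization 173 millionths (adjusted p of 1 by limma).

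Uros, uroporphyrinogen III synthase, closes the ring of the porphyrin. The pair of Uros probe sets had mean levels of 6.79 and 6.07, at the 60.2nd and 16.1st percentiles. Both had their highest value in high-fat replicate 1, at 879 millionths in the brighter and 508 millionths in the dimmer probe set. The 7 other arrays lay between -309 and 102 millionths in the brighter probe set and between -189 and 101 millionths in the dimmer one. The diet differences were 0.539 and 0.220 within-group SDs (adjusted p of 1 by limma), and without high-fat replicate 1 they were -47.8 and -108 millionths. Uros is the only enzyme here with more than 1 probe set, so agreement between probe sets of 1 enzyme could be looked at in this gene alone. Over the 8 arrays the correlation was r = 0.870 (Pearson, exact permutation p = 0.0550, adjusted p = 0.176 over the 16 relations computed) and rho = 0.333 (Spearman, exact permutation p = 0.428, adjusted p = 0.856). Without high-fat replicates 1 and 4, the arrays farthest from the median of the brighter probe set, r was 0.0236. Within the normal animals alone r was 0.814, and within the high-fat animals alone 0.893 (n = 4 each). After subtraction of the diet means r was 0.879 (exact permutation, adjusted p = 0.0816). The agreement over the 8 arrays thus depended in part on high-fat replicates 1 and 4.

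Urod, uroporphyrinogen decarboxylase, removes carboxyl groups from the ring in the cytosol. Its mean level was 10.32, at the 98.9th percentile. The high-fat animals lay at 140.0, -8.07, 145 and 0.787 millionths, against -143, -31.1, -53.7 and -49.0 millionths in the normal animals. Every high-fat animal exceeded every normal animal, with a gap of high-fat replicate 2 to normal replicate 2 that was small beside the spread within the diets. Urod was the only one of the 5 enzymes whose diets did not overlap, and 0.586% of all probe sets had no overlap with high-fat higher (1.44% had no overlap in either direction). Means were 69.3 ± 84.3 millionths in the high-fat group and -69.3 ± 50.4 millionths in the normal group (SD, n = 4). The difference was 139 ± 46.2 millionths (SE), or 2.0 within-group SDs, and limma gave an adjusted p of 1. The exact permutation test gave its smallest possible p, 0.0286. Within the high-fat group, replicates 1 and 3 were far above replicates 2 and 4. Leaving out single animals gave differences from 114 to 164 millionths, and centring gave 72.7 millionths. Quantile normalization, which sets each value by its rank within the array, gave a difference of 0, so that the diets then overlapped. A difference that leaves the ranks alike cannot show after this step.

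Cpox, coproporphyrinogen oxidase, works in the space between the mitochondrial membranes. It had a mean level of 7.17, at the 76.3rd percentile. Deviations were -16.2, 11.2, -8.07 and 22.4 millionths in the high-fat animals, against -4.99, 10.5, -22.9 and 8.14 millionths in the normal animals. High-fat replicates 2 and 4 lay above every normal animal, replicate 2 by less than 1 millionth, and normal replicate 3 lay below every high-fat animal, while the rest overlapped. The difference was 4.64 ± 11.0 millionths (SE), or 0.281 within-group SDs, and the limma adjusted p was 1. It was -2.03 millionths without high-fat replicate 4 and -61.3 millionths after centring. Ppox, protoporphyrinogen oxidase, acts next, and its probe set had a mean level of 6.54. Its difference was 0.572 within-group SDs (adjusted p of 1 by limma) and rested on high-fat replicate 1, which lay at 284 millionths, since without that animal the difference was -10.4 millionths.

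Fech, ferrochelatase, carries an iron-sulfur cluster and places iron into protoporphyrin at the inner mitochondrial membrane, the last step. Its mean level was 13.06, at the 99.8th percentile. The high-fat animals lay at 13.6, -38.8, 78.0 and 42.4 millionths, against -53.2, -48.9, -8.51 and 15.4 millionths in the normal animals. High-fat replicates 3 and 4 lay above every normal animal and normal replicates 1 and 2 below every high-fat one, while the rest overlapped. The difference was 47.6 ± 27.9 millionths (SE), or 1.13 within-group SDs, and limma gave an adjusted p of 1. Leaving out single animals gave 29.5 to 68.5 millionths, while centring turned the difference to -18.3 millionths and quantile normalization set it to 0. Fech spread more than most probe sets as bright as it. Its SD over the 8 arrays was 46.4 millionths, and 95.3% of the 64 probe sets above a level of 13 had a smaller one, whereas the SD of Alas2 was 1.42 millionths.

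**Figure D2:**
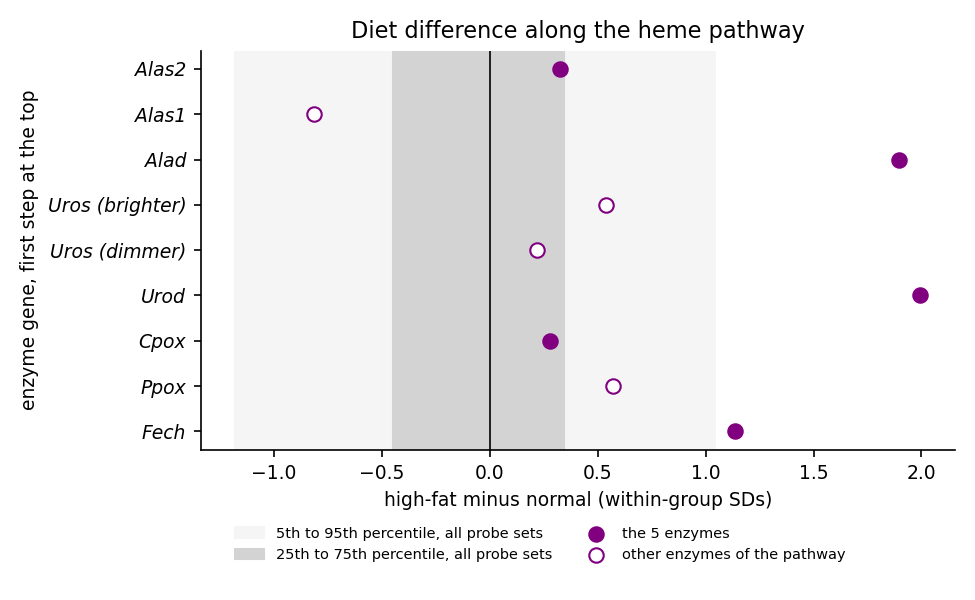
Difference of high-fat minus normal in within-group SDs for each enzyme probe set, with the first step of the pathway at the top. Filled points are the 5 enzymes, open points the other enzymes, and shaded bands the middle of all 31042 probe sets. Urod at 2.0, Alad at 1.90 and Fech at 1.13 lie beyond the 95th percentile of all probe sets, 1.04, and Alas2 and Cpox lie within the 25th to 75th percentile, -0.445 to 0.344.

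The deposited values of the enzymes differed in their spread, which need not be a difference in how much the RNA varied, since the compression may differ. Urod and Alad had SDs over the 8 arrays at the 96.1st and 93.3rd percentiles of all probe sets, Fech at the 92.0th and Cpox at the 77.1st, with Alas2 far below at the 10.8th. Within bins of mean level that hold 3104 or 3105 probe sets each, these SDs lay at the 80.8th percentile for Urod, the 91.7th for Alad, the 65.4th for Fech, the 71.7th for Cpox and the 4.77th for Alas2. The bin of Alas2 also holds far dimmer probe sets. Of the 64 above a level of 13, 34.4% had a smaller SD than Alas2. Diet differences in millionths, not scaled by spread, were also ranked among the 500 probe sets nearest in mean level. Of these, 98.0% had a lower diet difference than Alad, 93.0% than Urod, 88.4% than Fech, 81.6% than Cpox and 54.4% than Alas2. The share was 99.8% for each Uros probe set and 98.6% for Ppox, whose differences rested on high-fat replicate 1, and 10.0% for Alas1.

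**Figure D3:**
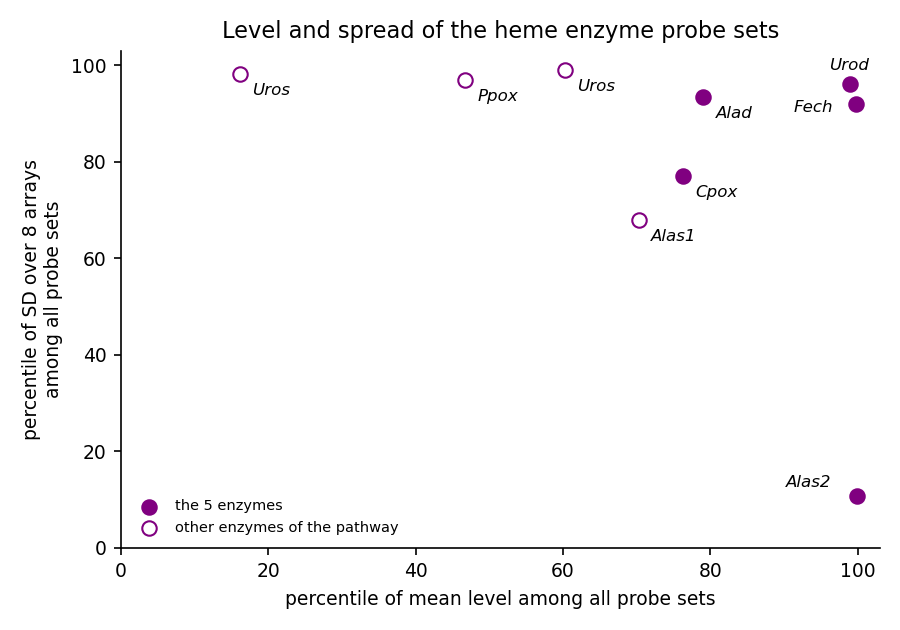
Percentile of the mean level (horizontal) and of the SD over the 8 arrays (vertical) of each enzyme probe set among all 31042 probe sets. Filled points are the 5 enzymes and open points Alas1, Uros and Ppox. Alas2 has the highest level percentile, 99.9, and the lowest SD percentile, 10.8.

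The highest correlations between enzymes over the animals were those among Alad, Urod and Fech, and none of the 10 pairs passed after adjustment. Alad and Fech had r = 0.871 over the 8 arrays (Pearson, exact permutation p = 0.00503) and rho = 0.857 (Spearman, exact permutation p = 0.0107). Adjusted over the 16 relations computed, these were 0.0560 and 0.171, so neither passed. Without normal replicate 1 and high-fat replicate 3, the arrays farthest from the median of Alad, r was 0.825, and after subtraction of the diet means it was 0.826 (exact permutation, adjusted p = 0.0816). Of all named probe sets, 99.8% had a lower r with Alad than Fech had. For Alad and Urod, r was 0.792 and rho 0.810 (exact permutation p = 0.0214 and 0.0218, adjusted 0.114 and 0.174), and r was 0.497 without the same pair of arrays. Urod and Fech had r = 0.702 and rho = 0.690 (exact permutation p = 0.0527 and 0.0694, adjusted 0.176 and 0.307), and r was 0.487 without high-fat replicates 1 and 3. After subtraction of the diet means, r was 0.530 for Alad with Urod and 0.525 for Urod with Fech (exact permutation, adjusted p = 0.351 each). The relations of Alad and of Fech with Urod thus rested in part on the animals at the ends of the range and on the diet means. Alas2 had r from -0.467 to 0.238 with the other 4 enzymes, and Cpox had r from -0.467 to -0.0438, with exact permutation p from 0.249 to 0.915. Centring each array on its median raised r in all 10 pairs of enzymes, with an adjusted p under 0.05 (exact permutation) for Alad with Fech, Alad with Urod and Alas2 with Cpox. Because centring takes the same array median from both enzymes, a higher r does not show that their own values go together. After centring r was highest, at 0.978, between Alas2 and Cpox. Their own ranges of 3.4 and 45.2 millionths are small beside the range of the array medians that is then subtracted from both.

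**Figure D4:**
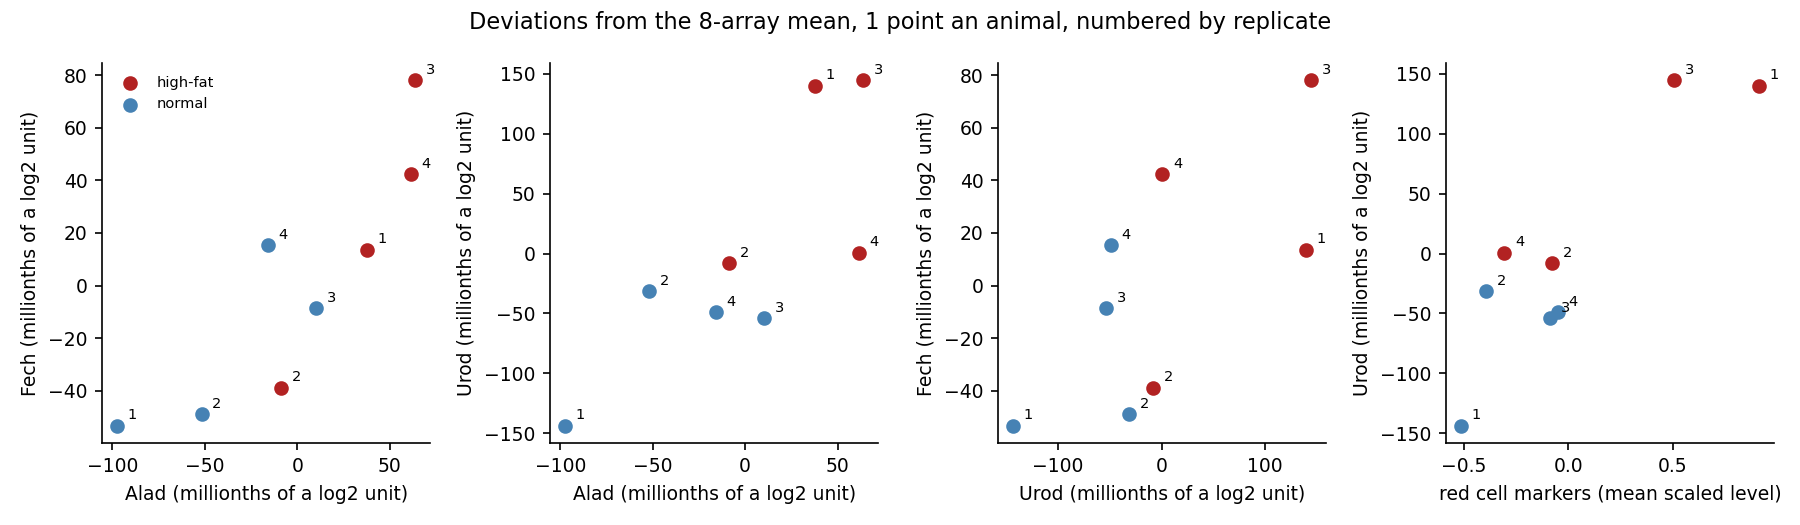
Deviations from the 8-array mean in millionths of a log2 unit, 1 point an animal, red for high-fat and blue for normal, numbered by replicate. From left to right are Fech against Alad (r = 0.871), Urod against Alad (r = 0.792), Fech against Urod (r = 0.702) and Urod against the scaled level of the red cell markers (r = 0.892).

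The red cell markers, a list of globin, membrane and regulator genes that holds none of the enzymes, were set beside them. Of its 30 genes, 21 were measured, with a median level at the 97.3rd percentile. None passed limma. In the high-fat group 16 had a higher mean, 4 a lower and 1 an equal one, with a median difference of 0.551 within-group SDs, and 3 of them, Hemgn, Kel and Xpo7, had 4 high-fat values that each exceeded all 4 normal values, against 0.586% of all probe sets. After centring, 10 were higher and 11 lower, and leaving out single animals gave 14 to 18 higher. The scaled level of the list was 0.914, -0.0765, 0.508 and -0.305 in high-fat replicates 1 to 4, against -0.513, -0.393, -0.0860 and -0.0488 in the normal animals. High-fat replicates 1 and 3, the highest animals for Urod, were also the highest here, while high-fat replicates 2 and 4 lay among the normal animals. The summed level of the list, as a deviation from its mean, ran from -43731 to 397271 millionths in the high-fat animals and from -90450 to -61683 millionths in the normal animals. This sum adds unscaled values and was mostly that of Xpo7. The diet difference of Xpo7 was 120882 millionths, and the next largest in the list was 11121.5 millionths, in Kel. The scaled levels of the diets overlapped. Urod followed the scaled level with r = 0.892 (Pearson, exact permutation p = 0.00699, adjusted p = 0.0560) and rho = 0.667 (Spearman, exact permutation p = 0.0831, adjusted p = 0.307). Without high-fat replicates 1 and 3 this r was 0.511. With the same list, Alad had r = 0.631, Fech 0.566, Alas2 0.278 and Cpox -0.510 (exact permutation p = 0.0929, 0.146, 0.541 and 0.206, adjusted 0.248, 0.334, 0.706 and 0.413). The part of the red cell share of blood RNA in the values of Urod and Alad was not tested.

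The red cell markers with the smallest p were Hemgn (a nuclear factor of immature red cells), Slc4a1, which swaps chloride and bicarbonate across the red cell membrane, and Klf1, a transcription factor of the lineage. Their differences were 2.63, 1.71 and 1.59 within-group SDs, and limma gave each an adjusted p of 1. Hemgn lay at 4097, 1024, 1277 and 794 millionths in the high-fat animals, against -3359, -1243, -656 and -1932 millionths in the normal animals, so that the diets did not overlap. Normal replicate 1 was the lowest animal for Hemgn as it was for Urod, Alad and Fech, and high-fat replicate 1 was the highest for Hemgn.

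**Figure D5:**
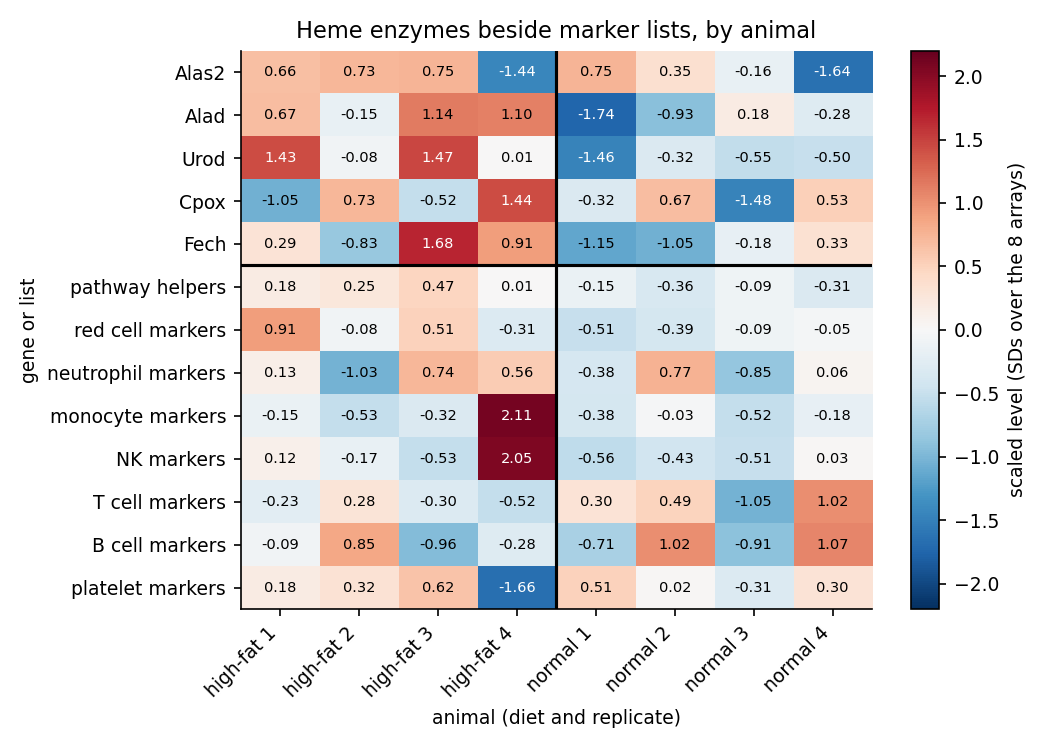
Scaled level (colour and printed number, in SDs over the 8 arrays) of the 5 enzymes and of the pathway helper and blood cell marker lists, for high-fat animals on the left and normal animals on the right. High-fat replicate 4 has the extreme values of the monocyte (2.11), NK (2.05) and platelet (-1.66) lists, and normal replicate 1 is lowest in Alad, Urod and Fech.

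Genes that supply the pathway were taken as a list of 23 helpers, which carry glycine, iron or heme precursors, build iron-sulfur clusters or control the first enzyme. Of these 21 were measured, 2 of which (Klf1 and Gata1) are also red cell markers. None passed limma, 16 had a higher and 5 a lower mean in the high-fat group, and the median difference was 0.495 within-group SDs. After centring, 3 were higher and 18 lower. Ireb2, an iron sensor that binds the messenger RNA of Alas2, stood 1.62 within-group SDs above normal. Slc25a37, the mitochondrial iron importer mitoferrin, stood at 1.27 and Tmem14c, needed for passing heme precursors through the inner mitochondrial membrane, at 1.26, with Klf1 at 1.59 as above. These are the 4 with the smallest p, each with an adjusted p of 1 by limma. The differences of Ireb2, Slc25a37 and Tmem14c were 9.46, 47.4 and 20.5 millionths and fell below 0 with centring. Slc25a37 lay at 16.4, 40.1, 56.8 and -18.5 millionths in the high-fat animals, against -14.1, -56.1, 30.7 and -55.3 millionths in the normal animals, which overlap. The carrier Slc25a38, which supplies glycine to the first step, stood at 0.761 within-group SDs, and Glrx5, which serves iron-sulfur cluster assembly, at -0.0941. These 2 helpers, and Kel and Xpo7 above, were picked with their values in view.

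The start regions of Alad, Urod and Fech are shown because these 3 enzymes had the highest correlations with each other, none of which passed after adjustment. They are the 250 bases before the annotated start in RefSeq's GRCr8 assembly, all on the minus strand and printed 5′ to 3′ along the gene, and the array files name no build. Capitals mark matches on either strand to 4 motifs: the E-box CACGTG, the GC box GGGCGG, the CACCC box (CACCC) and the GATA word (GATA with A or T before it and A or G after it). TATAAA and TGACTCA were also searched and had no match in these windows.
Alad, chr5:80987902-80988151: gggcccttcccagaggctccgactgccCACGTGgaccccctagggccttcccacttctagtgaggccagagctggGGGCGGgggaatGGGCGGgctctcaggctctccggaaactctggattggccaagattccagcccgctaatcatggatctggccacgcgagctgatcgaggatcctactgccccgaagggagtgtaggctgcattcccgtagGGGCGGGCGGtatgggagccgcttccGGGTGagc
Urod, chr5:135705381-135705630: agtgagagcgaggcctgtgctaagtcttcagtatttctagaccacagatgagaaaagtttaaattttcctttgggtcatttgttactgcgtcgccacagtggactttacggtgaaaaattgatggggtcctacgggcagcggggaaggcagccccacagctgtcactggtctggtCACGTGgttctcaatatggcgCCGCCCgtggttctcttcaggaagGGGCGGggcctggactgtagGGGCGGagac
Fech, chr18:60248526-60248775: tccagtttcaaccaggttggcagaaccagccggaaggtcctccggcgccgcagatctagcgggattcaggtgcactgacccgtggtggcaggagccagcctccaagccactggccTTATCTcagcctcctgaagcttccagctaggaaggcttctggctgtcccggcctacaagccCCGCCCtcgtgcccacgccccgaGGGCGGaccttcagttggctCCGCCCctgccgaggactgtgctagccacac

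All 3 windows held GC boxes, 4 in Alad (of which 2 overlap), 3 in Urod and 3 in Fech, and 30.5% of the 33469 windows of the same length in the assembly held at least 1. The E-box stood in Alad, 223 to 218 bases before the start, and in Urod, 75 to 70 bases before it, and 5.59% of all windows held it. The GATA word stood in Fech as AGATAA on the opposite strand, 135 to 130 bases before the start (27.0% of all windows), and the CACCC box in Alad (49.2%). TATAAA occurs in 12.9% of all windows and TGACTCA in 4.05%. The windows had GC contents of 65.6%, 54.4% and 65.2% in Alad, Urod and Fech, with a median of 51.2% over all windows. A match describes the letters only. The window listed for Alas2 starts 4800 bases inside the annotated gene and is not shown. Cpox is named only.

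Genes whose values followed each enzyme most closely over the 8 arrays were found among 20825 probe sets of other named genes, as a description with arrays and any array shift in common. Nearest to Alas2 were Tmem245 (r = 0.968) and Atxn1l (r = 0.963). Nearest to Alad were Fdft1, squalene synthase (r = 0.943), and Rrp7a (r = 0.939), and nearest to Urod were Cc2d1a (r = 0.968) and the stress hormone target Fkbp5 (r = 0.959). Cpox was closest to Ptbp3 (r = 0.989) and Myl12a (r = 0.988), and Fech to the protease Usp4 (r = 0.976) and the respiratory chain subunit Cox6b1 (r = 0.964). An r above 0.9 was reached with Cpox by 367 probe sets, 1.76% of those compared, and with the other 4 enzymes by 10 to 24, at most 0.115%. None of these nearest genes is an enzyme or helper of the pathway.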

How the data were processed

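Whole blood total RNA was amplified from 200 ng, biotin-labelled and measured on Affymetrix 3′ expression arrays, per the labels' protocols. The deposited table holds 1 log2 value per probe set and array, read as log2 from its range, 5.19 to 15.25. The authors' background correction, normalization and probe summary are not given in the sources used here. Probe set symbols came from the platform annotation, and all 9 enzyme probe sets matched a GRCr8 gene of the same symbol by gene number. From the 31099 probe sets, 57 controls were left out. No pair of arrays held identical values.

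Computed here were two-sided limma fits without covariates (limma 3.58.1, R 4.3.3) over 31042 probe sets with Benjamini-Hochberg adjustment at 0.05, exact permutation tests, correlations, motif counts, and the alternatives of the closing section. The fit was tested on simulated data with planted differences far larger than those of the enzymes and with no shift between arrays. That test does not show whether differences of the enzymes' size would be found. The only limit on precision stated is the number of arrays.

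Titles of the samples gave the diets and replicate numbers. The numbers were not taken to pair the animals. Correlations of scaled deviations of same-numbered animals ran from -0.121 to 0.355, which does not settle whether the numbers pair them.

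By rule, the genes named are every probe set of the enzymes, the 4 helpers and the 3 red cell markers with the smallest p, and the 2 probe sets nearest to each enzyme by Pearson r. Outside it, Hbb, Hba-a3 and Alb are named as checks of the tissue, and Sptb, Ttr, Kel, Xpo7, Slc25a38 and Glrx5 were chosen after their values were seen. A gene stands as its brightest probe set. The enzymes and the lists were chosen with earlier results of these data known, and the motifs with the start regions in view. Probe set agreement was planned for all 5 enzymes, but each has 1 probe set.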

Additional observations from a re-analysis of the deposited data

Results flagged for a closer look

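Among the enzymes and the named helpers and red cell markers, 30 groups of 4 animals were searched for 1 animal far from the other 3, and 5 were found, where chance gives about 1 in 20. In Alas2, high-fat replicate 4 lay at -2.05 millionths and the other high-fat animals between 0.933 and 1.07. In the dimmer Uros probe set, high-fat replicate 1 lay at 508 millionths and the others between -189 and -82.7. High-fat replicate 2 lay at -118 millionths in Klf1, with the others between 176 and 219. In Hemgn, high-fat replicate 1 lay at 4097 millionths and the others between 794 and 1277. Normal replicate 2 lay at -45.5 millionths in Slc4a1, with the others between -14.3 and -10.3. The causes were not tested.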

How the results depend on the processing

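The number of probe sets called stayed at 0 in 14 of the 15 alternatives and was 32 with quantile normalization on top, none of them among the 105 probe sets of the enzymes, the helper and marker lists and the genes nearest to each enzyme. The exact permutation test, 1 of the 14, could call none unless most of the 31042 probe sets reached its smallest possible p, 0.0286. The replicate number as a block gave 0 called and a smallest adjusted p of 1 by limma. For the 15 named probe sets, 222 alternative values were computed, of which 19 had the opposite sign and 0 passed an adjusted p of 0.05. Quantile normalization set 6 of the 15 differences to 0 (Alas2, Urod, Fech, Ireb2, Tmem14c and Slc4a1). Since it sets values by rank within each array, differences that leave the ranks alike vanish with it. It gave 173 millionths for Alad, 14.9 millionths for Alas1, -28.5 for Cpox, -281 for Klf1, -38.1 for Slc25a37 and -1417 for Hemgn. Centring arrays on their medians gave -65.5 millionths for Alas2, -13.4 for the dimmer Uros probe set, -61.3 for Cpox, -18.3 for Fech, -56.5 for Ireb2, -18.6 for Slc25a37, -45.5 for Tmem14c and -24.7 for Slc4a1, by construction since the medians of all 4 high-fat arrays lay above those of all 4 normal arrays. Leaving out single animals gave -0.198 to 1.26 millionths for Alas2, -2.21 to 10.8 for Cpox, -10.4 to 122 for Ppox, and -47.8 to 348 and -108 to 124 for the brighter and dimmer Uros probe sets. Enzymes whose diets do not overlap numbered 0 with quantile normalization (0.197% of all probe sets), 2 with centring (Alas2 and Cpox, both lower in high-fat, where 50.1% of all probe sets lay lower in high-fat with no overlap) and 1 to 2 without single animals (2.72% to 4.86% of all probe sets; Alad was the second one without high-fat replicate 2 or normal replicate 3). The median difference of the 5 enzymes was -0.288 within-group SDs with centring and 0.810 to 2.09 without single animals. With centring the Uros probe set correlation was r = 0.885, against 0.870 without it (exact permutation, adjusted p = 0.0344 and 0.176). The adjustment runs over the 16 relations, so this adjusted p also depends on the rest of them. With centring 7 of the 16 relations passed, against 0 without it and 0 after subtraction of the diet means. The 6 other than Uros had exact permutation adjusted p of 0.0131 for Alas2 with Cpox, 0.0200 for Alad with Fech and Urod with the red cell markers, and 0.0344 for Alad with Urod and for Alad and Fech with the red cell markers. Centring takes the same array median from both sides of each relation, so a pass with it does not show that the values themselves go together. Centring turned r positive between Alas2 and Alad (0.584), Cpox (0.978) and Fech (0.705), between Cpox and Alad (0.464), Urod (0.280) and Fech (0.607), and between Cpox and the red cell markers (0.597). Correlations, centred correlations and list counts without single animals were added after seeing the data. A floor for linear values was not needed.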
